A study of Mus musculus with 6 samples.

Results

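Skeletal progenitor cells of the periosteum, the tissue sheath on the outer face of bone, were followed here through 10 marker genes: Prrx1, Pdgfra, Eng, Thy1, Ly6a, Itgav, Nt5e, Cd200, Mcam and Postn. The genes were chosen by name as known markers of skeletal stem and periosteal progenitor cells. The rule held no measured value, but earlier results of these data were known when the genes were chosen. They are 10 of the 23733 genes in the count table, where they were found by Ensembl identifier, and all 10 passed the filter on low counts. RNA came from whole pulverized femurs of 5-week-old mice, 3 mutant and 3 control, with 1 library per mouse and between 11473467 and 17058572 counts assigned to genes.

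Mutant mice were heterozygous for mIfitm5, a Flag-tagged mutant Ifitm5 cDNA knocked into the Rosa26 locus (Rosa26 mIfitm5/+), and carried Acan-Cre ERT2, a tamoxifen-dependent Cre made from the aggrecan promoter, which is active in chondrocytes. Tamoxifen was injected at 10 mg/kg from postnatal day 10, and the series gives days 10 to 15 as the window of activation. The control mice were littermates that had the Cre alone, the knocked-in allele alone, or neither. Which of these each control was, whether every control received tamoxifen, and the sex of each mouse are not known from the labels or methods. The mutation is the one that causes osteogenesis imperfecta type V in people. The study counted periosteal progenitors by flow cytometry in a different line, with Prx1-Cre, so the femurs described here carry another driver and hold periosteum together with cortical bone, marrow, cartilage and attached muscle.

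Skeletal stem and progenitor cells give rise to the chondrocytes and osteoblasts of growing and healing bone, and the periosteum is one of their stores. None of their surface markers is made by these cells alone, so they are isolated with combinations of antibodies that select several antigens and exclude blood, red and endothelial cells. The study's gate took cells with endoglin (CD105, gene Eng) and PDGF receptor alpha (CD140a, gene Pdgfra) on their surface and without CD45 (Ptprc) or CD31 (Pecam1), and left out red cells. In its Prx1-Cre line the study reported a larger share of such cells in mutant periosteum, and no difference in bone marrow. That is surface protein on gated cells, whereas the values here are RNA of whole femurs. In the Acan-Cre ERT2 line the study also traced reporter-marked cells, and reported a smaller fraction of them in the diaphysis of mutants. From femur RNA of that line it reported higher chondrogenic and lower osteoblast markers. In cultured marrow stromal cells with the mutant allele switched on, it reported less osteoblastic differentiation. In bulk RNA, fewer cells of a type and less RNA per cell cannot be told apart.

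None of the 10 markers differed between mutant and control femurs past the threshold. In the edgeR quasi-likelihood fit, with Benjamini-Hochberg adjustment over the 18126 genes tested, 0 of 10 had an adjusted p under 0.05 (0% of all genes did), and 1, Mcam, was lower at an unadjusted p under 0.05 (8.56% of all genes reached this, and 3.49% were lower). DESeq2, limma-voom and edgeR with the replicate number of the labels as a block also called 0 of the 10, where they called 0.627%, 0% and 3.32% of all genes tested (for the block, 2.7% higher and 0.623% lower). Log2 fold changes of mutant over control ran from -0.49 to 0.29, with 7 negative and 3 positive and a median of -0.21, beside a median of 0.00 and 49.7% negative values over all genes. With library size alone in place of trimmed-mean (TMM) scaling, the median of all genes was 0.16 higher, and the markers split into 5 negative and 5 positive with a median of -0.05. Mcam was also the only marker whose 3 mutant values lay apart from its 3 control values, 1 of 10 against 13.2% of all genes tested (6.67% with the mutant femurs below).

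**Figure D1:**
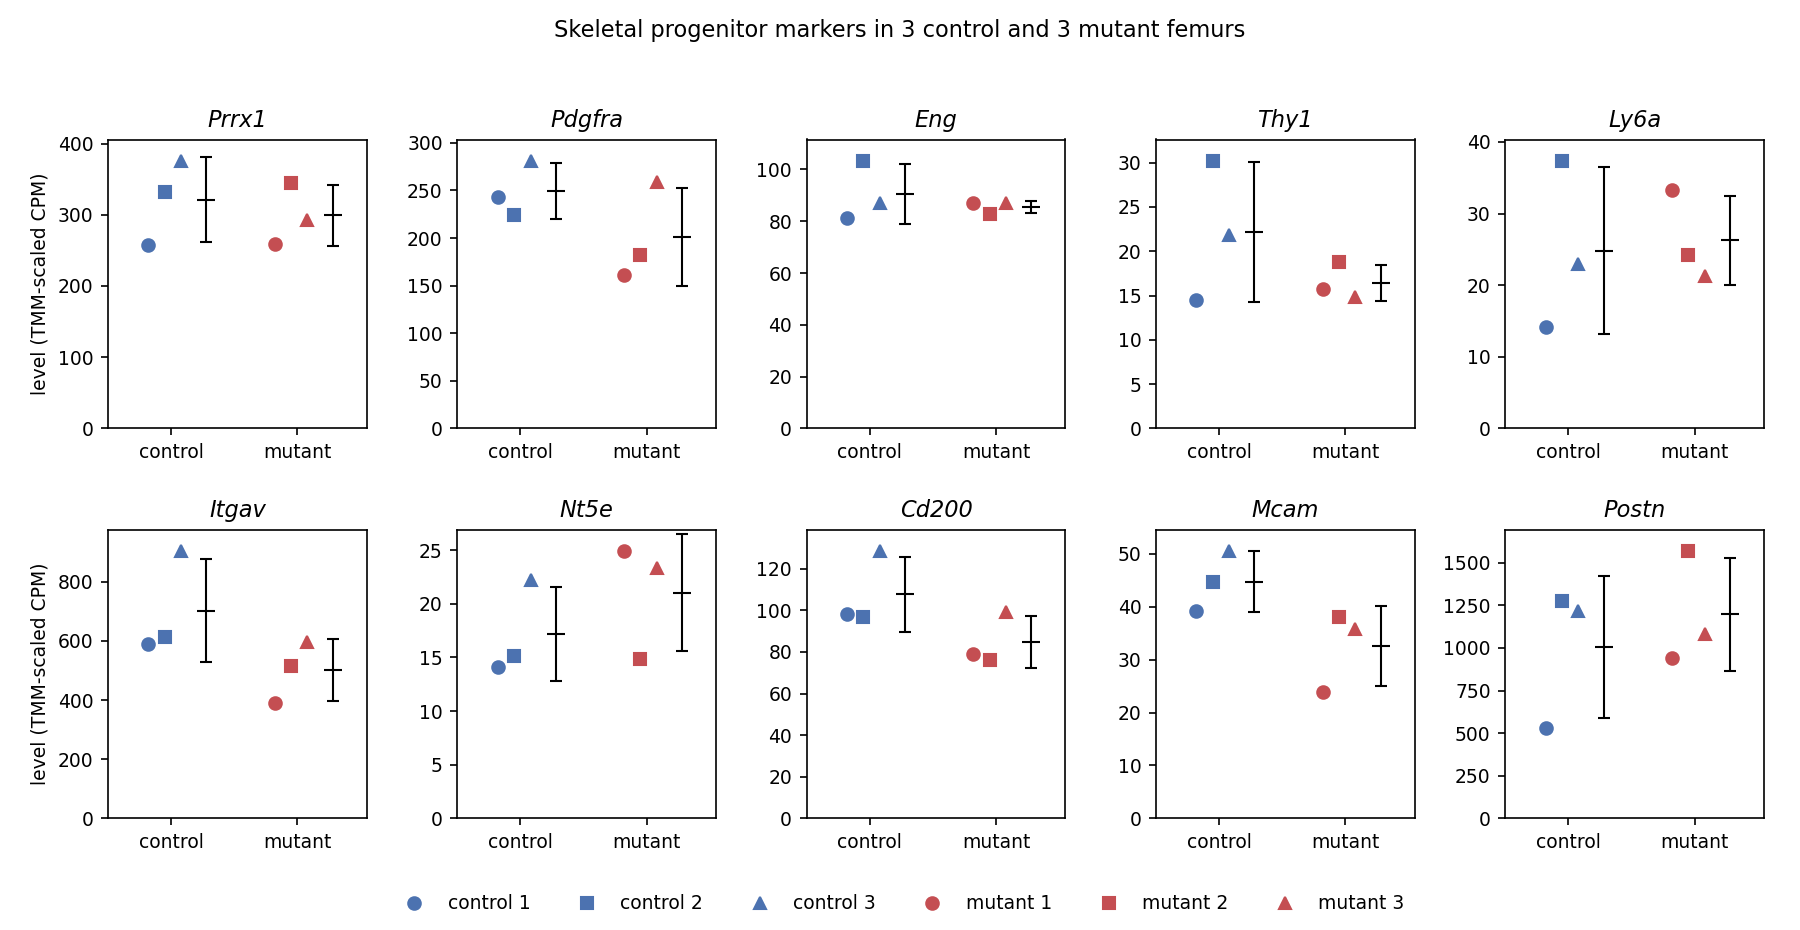
Level of each marker in CPM (counts scaled to library size with TMM) in each of the 6 femurs, with 1 point per mouse, a symbol per replicate number, and the group mean and SD (n = 3) beside the points. The axes start at 0, and the groups overlap for each gene except Mcam, where the mutant femurs lie from 24.0 to 38.1 CPM and the control femurs from 39.1 to 50.6 CPM.

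Per kilobase of the canonical transcript the markers spanned a wide range in control femurs. Postn stood highest at a mean of 318 CPM per kb (167 to 402 in the 3 femurs), and Itgav followed at 95.01 CPM per kb (79.8 to 122). Prrx1 had 54.0 CPM per kb (43.2 to 63.1), Cd200 42.9 (38.4 to 51.2) and Pdgfra 37.8 (34.0 to 42.6). These were followed by Eng at 25.9 CPM per kb (23.3 to 29.6). Ranges over the 3 femurs did not overlap between Postn and Itgav, Itgav and Prrx1, Pdgfra and Eng, or Eng and Mcam, whereas Prrx1, Cd200 and Pdgfra overlapped from one neighbour to the next. Mcam had 13.4 CPM per kb (11.7 to 15.1), Thy1 11.7 (7.67 to 16.0), Ly6a 6.70 (3.84 to 10.1) and Nt5e 4.13 (3.40 to 5.34), again with overlap between neighbours. This order holds for the canonical length only. All annotated exons merged span 7798 bases for Eng against 3489 in its canonical transcript, and 3613 against 3345 for Mcam. With merged exon lengths the order would differ, and Mcam would no longer stand below Eng. The lowest count of any marker in any library was 170, for Nt5e in control mouse 1.

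Prrx1 encodes a paired-related homeobox transcription factor of limb bud mesenchyme, whose enhancer drives the Prx1-Cre line. It lies on the minus strand of chromosome 1 of GRCm39 from 163041844 to 163142033. Its level was 257, 331 and 376 CPM in controls 1 to 3, and 259, 344 and 293 CPM in mutants 1 to 3. The groups overlapped almost completely, and mouse 1 was the lowest of each group. The mutant femurs differed from the controls by -0.10 on the log2 scale (standard error, SE, 0.18, 95% interval -0.51 to 0.30, adjusted p = 0.891, edgeR), and the sign was positive with library size alone (0.054) and without control mouse 3 (0.027).

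Pdgfra, on the plus strand of chromosome 5 from 75311994 to 75358876, encodes the receptor tyrosine kinase that binds platelet-derived growth factors and is a positive antigen of the progenitor gate. Controls 1 to 3 had 243, 224 and 281 CPM, and mutants 1 to 3 had 162, 182 and 259 CPM. Mutant mice 1 and 2 lay below all 3 controls and mutant mouse 3 lay among them. This gave a log2 fold change of -0.31 (SE 0.19, 95% interval -0.74 to 0.12, adjusted p = 0.669, edgeR). Leaving out mutant mouse 1 brought it to -0.18, and leaving out mutant mouse 3 to -0.54.

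Of the genes around this receptor, Pdgfa, its main ligand, was at 35.2, 31.1 and 47.9 CPM in controls 1 to 3 and at 15.3, 24.9 and 25.4 CPM in mutants 1 to 3. All 3 mutant values lay below all 3 control values. Pdgfa had a log2 fold change of -0.80 (SE 0.24), with an adjusted p of 0.545 by edgeR without a block and 0.0293 with the replicate block. Pdgfb and Pdgfc, named after their values were seen, also had all mutant values below all control values, as did 6.67% of all genes tested. Their log2 fold changes were -0.44 and -0.66, with an adjusted p of 0.563 and 0.57 by edgeR without the block. By edgeR with the block it was 0.104 and 0.0669. Pdgfd overlapped between groups, at a log2 fold change of -0.31.

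Eng encodes endoglin, a co-receptor of the TGF-beta and BMP family that vascular endothelium makes strongly, and it is the other positive antigen of the gate. It lies on the plus strand of chromosome 2 from 32535543 to 32574661, and its exons overlap those of Fpgs on the opposite strand over 860 bases, 11.03% of the exon length of Eng. Whether reads were counted by strand is not stated, so reads of both genes in that stretch cannot be told apart. Controls 1 to 3 had 81.2, 103 and 87.1 CPM and mutants 1 to 3 had 87.0, 82.7 and 86.9 CPM. The mutant values all lay within the control range. The difference for Eng was -0.08 on the log2 scale (SE 0.13, 95% interval -0.37 to 0.21, adjusted p = 0.880, edgeR), and it was positive with library size alone (0.085) and without control mouse 2 (0.026).

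Because endothelial RNA also carries Eng and Mcam, both were set against the summed level of 18 endothelial genes, which was 777 to 842 CPM in control and 710 to 755 CPM in mutant femurs. The ratio of Eng to this sum was 0.104, 0.123 and 0.112 in controls 1 to 3 and 0.119, 0.1096 and 0.122 in mutants 1 to 3. The difference of 0.05 on the log2 scale lay within the spread between mice (exact permutation test, two-sided p = 0.7, adjusted p = 0.7 over 4 ratios), and it was 0.13 with the geometric mean of the list in place of its sum. With 3 mice against 3, the smallest p that this test allows is 0.1. For Mcam the ratio was 0.050, 0.053 and 0.065 in controls 1 to 3 and 0.033, 0.050 and 0.050 in mutants 1 to 3. Its log2 difference was -0.35 (exact permutation test, two-sided p = 0.3, adjusted p = 0.6), and -0.14 without mutant mouse 1.

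Mcam (CD146), on the plus strand of chromosome 9 from 44045504 to 44054025, encodes an adhesion molecule of the immunoglobulin superfamily found on pericytes and endothelium, and in people on skeletal progenitors of the marrow. Controls 1 to 3 had 39.1, 44.6 and 50.6 CPM and mutants 1 to 3 had 24.0, 38.1 and 35.8 CPM. The highest mutant value, in mouse 2, was just below the lowest control value. On the log2 scale the difference was -0.46 (SE 0.20, 95% interval -0.90 to -0.01, unadjusted p = 0.0448, adjusted p = 0.574, edgeR), and it ranged from -0.58 to -0.28 with each mouse left out in turn. With the block the adjusted p was 0.0908 (edgeR). The antisense gene Gm10687 overlaps 553 bases of Mcam exons, 15.3% of their length. Of the markers of cells that also make Mcam, 14 of 18 endothelial genes had negative values (median log2 fold change -0.26, and -0.096 with library size alone) and 4 of 11 pericyte and smooth muscle genes did (median 0.14). Their part in the values of Mcam beyond the ratio above was not tested.

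Itgav encodes integrin alpha V (CD51), which pairs with several beta chains to bind vitronectin, fibronectin, periostin and latent TGF-beta, and which osteoblasts and osteoclasts make as well. It lies on the plus strand of chromosome 2 from 83554403 to 83637260. Controls 1 to 3 had 590, 613 and 904 CPM and mutants 1 to 3 had 391, 515 and 597 CPM. Mutant mice 1 and 2 lay below all controls, and mutant mouse 3 lay just above control mouse 1. Its log2 fold change of -0.49 was the most negative of the 10 markers (SE 0.22, 95% interval -0.99 to 0.02, adjusted p = 0.593, edgeR), and it ranged from -0.64 to -0.26 with each mouse left out. With the replicate block the adjusted p was 0.0555, the lowest of any marker in that fit (edgeR). Its 5 beta chains in the list of partners, named after their values were seen, were not all on one side. Itgb1, Itgb3, Itgb5 and Itgb8 had log2 fold changes of -0.04, -0.19, -0.13 and -0.36, and Itgb6 had 0.41, each with overlapping groups. Itgb1 and Itgb5 turned positive with library size alone (0.12 and 0.036).

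**Figure D2:**
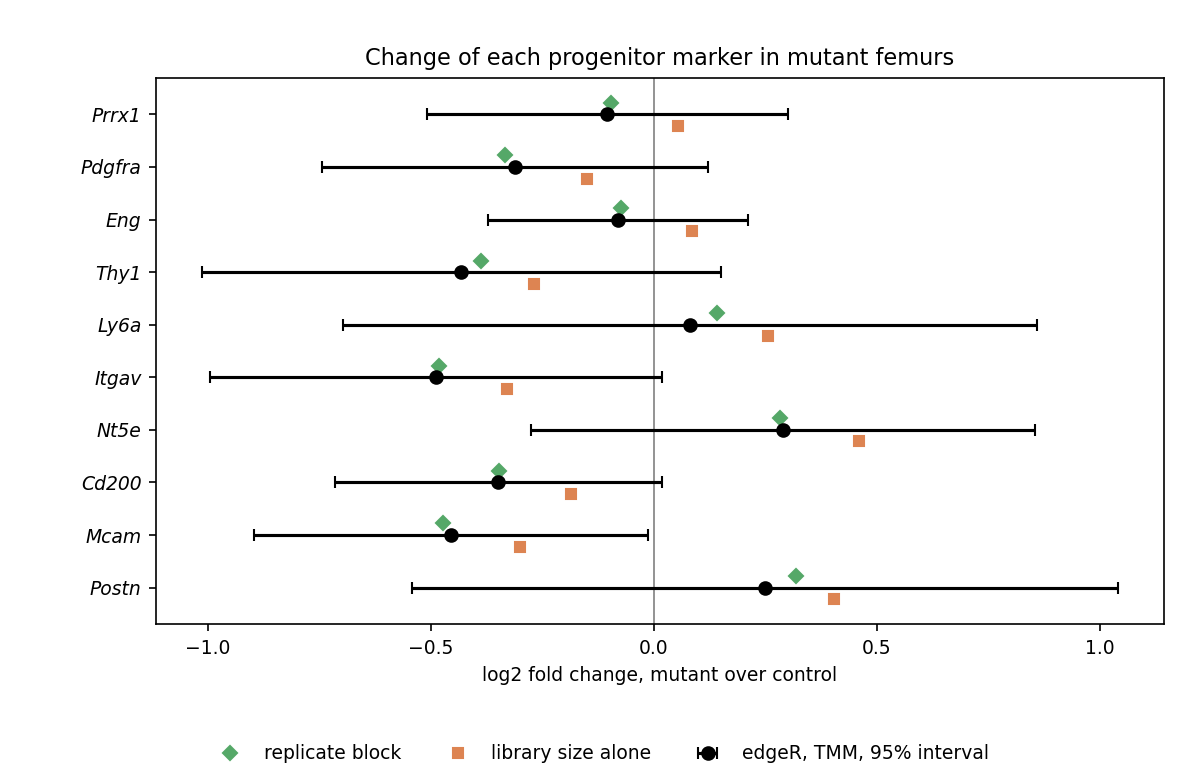
Log2 fold change of mutant over control for each marker with its 95% interval (black, edgeR with TMM), beside the estimate with the replicate block (green diamonds) and with library size alone (orange squares). The intervals of 9 of the 10 markers include 0, that of Mcam ends at -0.01, and Prrx1 and Eng change sign with library size alone.

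Thy1 (CD90), on the plus strand of chromosome 9 from 43954332 to 43959880, encodes a small glycoprotein anchored to the membrane by a lipid, which mouse T cells and neurons carry too. Its level was 14.5, 30.2 and 21.8 CPM in controls 1 to 3 and 15.8, 18.7 and 14.8 CPM in mutants 1 to 3. Control mice 2 and 3 lay above all mutant femurs, and control mouse 1 was the lowest of the 6. On the log2 scale Thy1 differed by -0.43 (SE 0.26, 95% interval -1.01 to 0.15, adjusted p = 0.661, edgeR), and -0.15 without control mouse 2. Genes of T and NK cells were scarce, with a sum over 12 genes of 25.2 to 26.3 CPM in control and 19.5 to 31.7 CPM in mutant femurs, and Cd3d and Cd3g at 0 counts in at least 1 library. The ratio of Thy1 to this sum differed by -0.37 on the log2 scale between groups (exact permutation test, two-sided p = 0.5, adjusted p = 0.667 over 4 ratios). It was -0.71 with the geometric mean of the list in place of its sum, and -0.11 without control mouse 2. Cd4 alone made 14.1 to 17.1 CPM of the sum in control and 5.86 to 15.9 CPM in mutant femurs. The log2 fold change of Cd4 was -0.57, whereas 5 of the 8 tested genes of the list were positive and 3 negative, with a median of 0.63. The ratio to the sum thus rests largely on Cd4 and cannot stand for T and NK cells as a whole.

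Ly6a encodes stem cell antigen 1, also anchored by a lipid, which mouse hematopoietic stem cells, endothelium and mesenchymal progenitors display. It lies on the minus strand of chromosome 15 from 74863840 to 74869880, in a cluster of Ly6 genes that arose by duplication, and its counts are uncertain where the copies are alike. Of the 50-base windows of its canonical transcript, 610 of 3657 (16.7%) are identical to a window of another gene's transcript, most of them of the lncRNA Gm28068. With Gm28068, 422 windows match in the same direction and 125 in the reverse direction. Exons of Gm28068 overlap those of Ly6a on the opposite strand over 223 bases. Among the protein-coding copies, the longest identical coding run is 80 bases with Ly6i, and with Ly6c2 it is 52 bases. Both pairs are shown 5′ to 3′ from GRCm39 transcripts of GENCODE, because reads that fall wholly inside the capitals, the identical run, have no base that tells the copies apart. The lower-case ends are 12 flanking bases on each side. The run with Ly6i lies on the minus strand at chr15:74868359-74869404 across 2 exons of Ly6a, at bases 50 to 129 of its coding sequence, and that with Ly6c2 lies on the same strand at chr15:74867132-74867183, at coding bases 333 to 384.
Ly6a: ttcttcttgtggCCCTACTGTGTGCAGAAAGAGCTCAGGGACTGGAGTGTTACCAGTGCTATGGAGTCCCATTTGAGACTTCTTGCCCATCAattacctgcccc
Ly6i: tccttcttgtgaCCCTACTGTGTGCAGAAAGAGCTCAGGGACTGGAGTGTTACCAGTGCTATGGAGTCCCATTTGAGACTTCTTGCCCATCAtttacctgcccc
Ly6a: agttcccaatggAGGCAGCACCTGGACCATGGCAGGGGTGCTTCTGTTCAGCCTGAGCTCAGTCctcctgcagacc
Ly6c2: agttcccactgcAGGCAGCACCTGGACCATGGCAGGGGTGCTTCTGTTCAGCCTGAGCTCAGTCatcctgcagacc

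The level of Ly6a was 14.2, 37.4 and 22.9 CPM in controls 1 to 3 and 33.3, 24.3 and 21.4 CPM in mutants 1 to 3. The lowest and the highest value of the 6 were both in control femurs. The estimate for Ly6a was 0.08 on the log2 scale (SE 0.34, 95% interval -0.70 to 0.86, adjusted p = 0.959, edgeR), and it was negative without control mouse 1 (-0.21) and without mutant mouse 1 (-0.12). Ly6c2, a gene of monocytes and other blood cells, was at 14.9, 17.6 and 10.5 CPM in controls 1 to 3 and at 53.6, 41.1 and 29.7 CPM in mutants 1 to 3. All mutant femurs lay above all control femurs for Ly6c2, with a log2 fold change of 1.53 (SE 0.26). Its adjusted p was 0.436 by edgeR, 5.1e-04 by edgeR with the block and 4.75e-05 by DESeq2. Ly6i was nearly absent, with at most 0.475 CPM in any library. Of the 7 tested genes of a list of Ly6 genes, Ly6a had the log2 fold change nearest to 0, and all 7 were positive, with a median of 0.39. The list was drawn up around the cluster but also holds Ly6g6c, which lies on chromosome 17.

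Cd200, on the minus strand of chromosome 16 from 45202470 to 45229594, encodes an immunoglobulin-family glycoprotein that binds an inhibitory receptor on myeloid cells and marks skeletal stem cells of the mouse. Controls 1 to 3 had 98.2, 96.5 and 129 CPM and mutants 1 to 3 had 78.8, 76.0 and 99.1 CPM. Mutant mice 1 and 2 were the lowest of the 6, and mutant mouse 3 lay just above control mice 1 and 2. Cd200 differed between groups by -0.35 on the log2 scale (SE 0.16, 95% interval -0.72 to 0.02, adjusted p = 0.594, edgeR).

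Nt5e (CD73) encodes the surface enzyme that turns AMP into adenosine, and lies on the plus strand of chromosome 9 from 88209089 to 88254146. Its level was 14.1, 15.2 and 22.2 CPM in controls 1 to 3 and 24.9, 14.8 and 23.4 CPM in mutants 1 to 3. Mutant mice 1 and 3 lay above all controls, whereas mutant mouse 2 lay among the low ones. Nt5e had the largest positive log2 fold change of the 10, 0.29 (SE 0.25, 95% interval -0.28 to 0.85, adjusted p = 0.769, edgeR), and it was 0.15 without mutant mouse 1 or without control mouse 1.

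Postn encodes periostin, a matrix protein of the periosteum and of ligaments that crosslinks collagen and binds integrins. It lies on the plus strand of chromosome 3 from 54268501 to 54298471. Controls 1 to 3 had 528, 1273 and 1219 CPM and mutants 1 to 3 had 940, 1569 and 1082 CPM. Postn varied more between mice than any other marker, with a ratio of 2.97 between the highest and the lowest library, and control mouse 1 was far below the rest. For Postn the estimated log2 fold change was 0.25 (SE 0.34, 95% interval -0.54 to 1.04, adjusted p = 0.859, edgeR), and it was -0.072 without control mouse 1 and -0.0036 without mutant mouse 2.

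The intervals bound the change in each gene's RNA over the whole femur, under TMM scaling. They do not bound the number of progenitor cells, because the share of each gene's RNA that came from those cells was not measured. With library size alone, log2 fold changes over all genes were higher by a median of 0.16. Under TMM scaling, a 2-fold rise lay within the 95% interval of 1 marker, Postn, and a 2-fold fall within that of 1 marker, Thy1. These counts hold for TMM only. With library size alone the estimates were 0.46 for Nt5e, 0.26 for Ly6a and -0.27 for Thy1, and their intervals are not given here. For the pair of positive antigens of the gate, the interval of the mutant over control ratio was 0.597 to 1.09 for Pdgfra and 0.772 to 1.16 for Eng. The ratio of the highest to the lowest library ran from 1.27 for Eng to 2.97 for Postn over all 6 mice.

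**Figure D3:**
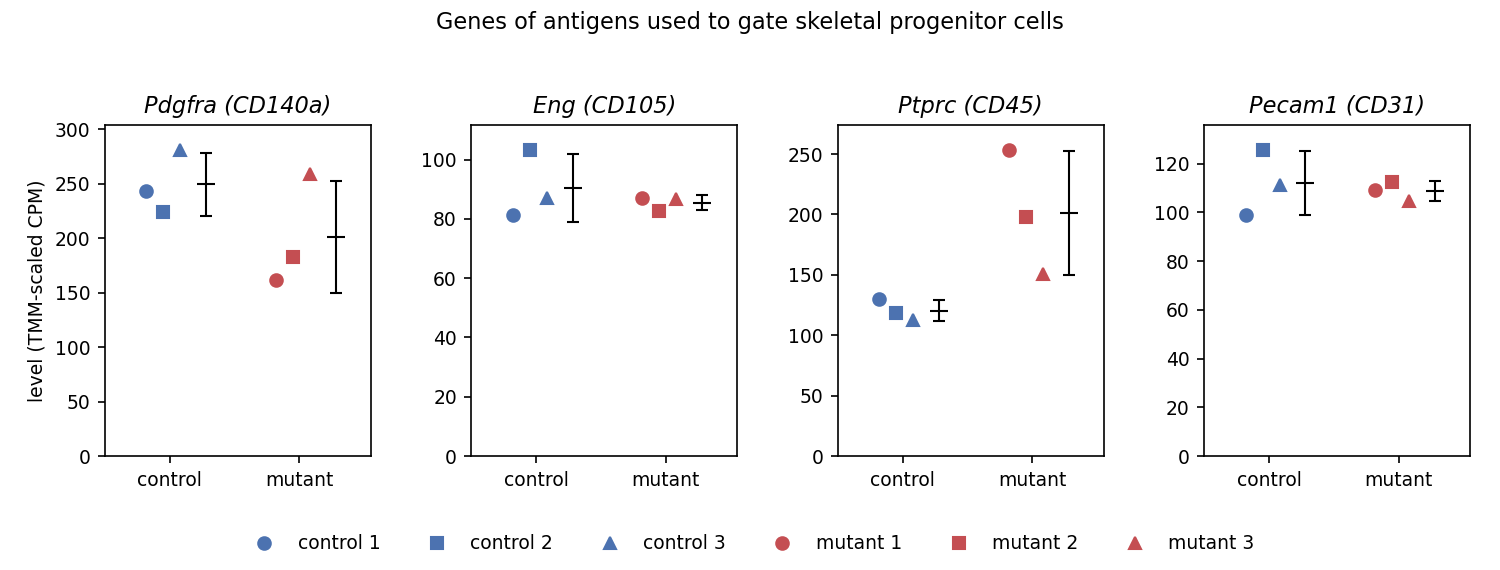
Levels in CPM of the genes for the antigens of the flow cytometry gate in each femur, with group means and SD (n = 3): the positive antigens Pdgfra and Eng, and Ptprc and Pecam1 for the excluded blood and endothelial cells. Ptprc is higher in all 3 mutant femurs (151 to 254 CPM) than in the control femurs (113 to 130 CPM), while the groups overlap for Pecam1.

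Genes of blood and endothelial cells that the gate excludes were measured in the same libraries. Ptprc, the pan-leukocyte phosphatase CD45, was at 130, 118 and 113 CPM in controls 1 to 3 and at 254, 198 and 151 CPM in mutants 1 to 3. The mutant values lay above all control values, at a log2 fold change of 0.74 (SE 0.19), with an adjusted p of 0.511 by edgeR and 0.0097 with the block. Pecam1, the endothelial antigen CD31, was at 99.1, 126 and 111 CPM in control and at 109, 113 and 105 CPM in mutants 1 to 3, a log2 fold change of -0.04 (adjusted p = 0.941, edgeR) that was 0.12 with library size alone. Ifitm5, on which the knocked-in and the endogenous transcript cannot be told apart, was at 31.8, 31.3 and 47.6 CPM in control and at 23.4, 36.7 and 36.0 CPM in mutants 1 to 3 (log2 fold change -0.20, adjusted p = 0.816, edgeR).

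Marker genes of the other tissues of the femur also differed in level between these libraries. The sum of 11 osteoblast genes was 122000 to 177000 CPM in control and 61200 to 111000 CPM in mutant femurs, lowest in mutant mouse 1 and highest in control mouse 3, and the log2 fold change was negative for all 11 (median -0.41). Control mouse 3 was also the highest of the 6 libraries for Prrx1, Pdgfra, Itgav, Cd200 and Mcam, and mutant mouse 1 was the lowest for Pdgfra, Itgav and Mcam. The remaining markers went otherwise, with Eng, Thy1 and Ly6a highest in control mouse 2, Postn in mutant mouse 2 and Nt5e in mutant mouse 1. Control mouse 1 was the lowest for Prrx1, Eng, Thy1, Ly6a, Nt5e and Postn. Relative to the osteoblast sum, Pdgfra was at 0.00193, 0.00183 and 0.00159 in controls 1 to 3 and at 0.00264, 0.00189 and 0.00233 in mutants 1 to 3. This ratio was on the positive side, unlike the level of Pdgfra itself, with a log2 difference of 0.35 (exact permutation test, two-sided p = 0.2, adjusted p = 0.6 over 4 ratios). Most of the sum was Col1a1 and Col1a2, the collagen I genes, and with the geometric mean of the list the difference was 0.105 (exact permutation test, two-sided p = 0.4). Sums of marker genes were 637 to 769 CPM in control and 750 to 962 CPM in mutant femurs for hematopoietic cells, 1060 to 2370 and 2050 to 11700 CPM for erythroid cells, 2880 to 3120 and 2850 to 7440 CPM for cartilage, 3680 to 24600 and 7070 to 31300 CPM for muscle, 150 to 286 and 164 to 293 CPM for B cells, and 67.8 to 103 and 90.5 to 147 CPM for Schwann cells. In the lists of other tissues and cell types 0 genes passed by edgeR without the block. In that fit 10 cartilage, 6 erythroid, 6 endothelial, 5 hematopoietic, 5 Schwann cell and 2 osteoblast genes had an unadjusted p under 0.05, as did 8.56% of all genes tested. In the muscle, B cell, T and NK cell, and pericyte and smooth muscle lists, 0 did. With the block, 12 of 14 erythroid, 8 of 12 muscle, 4 of 10 hematopoietic, 1 of 11 pericyte and 1 of 12 cartilage genes were called higher, and 2 of 11 osteoblast and 1 of 18 endothelial genes lower. The pericyte gene, named after its values were seen, was Des. It was at 93.5, 173 and 34.0 CPM in controls 1 to 3 and at 199, 244 and 55.4 CPM in mutants 1 to 3. Like the muscle sum, Des was lowest in control mouse 3 and highest in mutant mouse 2. DESeq2 called 9 cartilage, 2 hematopoietic and 1 endothelial genes. The part of these cells in the values of the 10 markers was not tested.

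**Figure D4:**
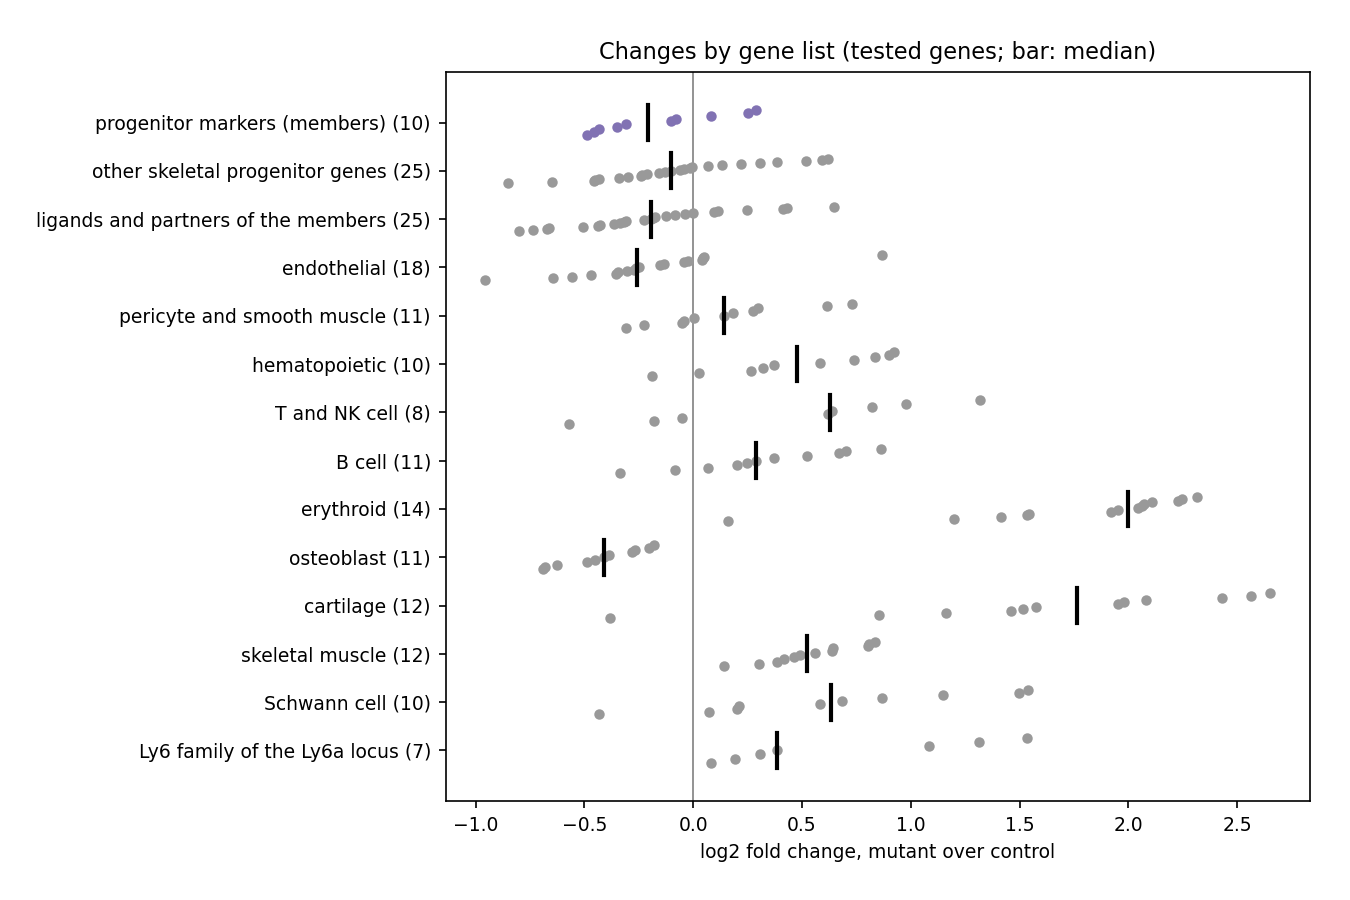
Log2 fold change of mutant over control of each tested gene (points) by gene list, with the list's median (black bars) and the number of genes tested in parentheses. The 10 progenitor markers lie between -0.49 and 0.29 around a median of -0.21, while erythroid and cartilage genes have medians of 2.00 and 1.77.

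A broader set of skeletal progenitor genes was read from the same fit. Of 26 further genes known to mark progenitors of periosteum, marrow, tendon or limb mesenchyme, 25 were tested, and 17 had a negative and 8 a positive log2 fold change. Their median was -0.10, or 0.06 under library size alone. By edgeR with or without the block, and by DESeq2, 0 of the 25 passed, with 1 at an unadjusted p under 0.05 by edgeR without the block. That gene was Twist1, a basic helix-loop-helix factor of mesenchyme, at 22.4, 31.1 and 43.2 CPM in controls 1 to 3 and 18.9, 21.6 and 21.3 CPM in mutants 1 to 3. All mutant values of Twist1 lay below the controls, with a log2 fold change of -0.65 (SE 0.23, adjusted p = 0.563, edgeR). Tnc, which encodes the matrix protein tenascin C, was at 2028, 2073 and 2629 CPM in control and 1182, 1621 and 2098 CPM in mutants 1 to 3, with overlap (log2 fold change -0.46, SE 0.24).

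Among 25 tested ligands, co-receptors and other partners of the markers, 19 had a negative and 6 a positive log2 fold change. Their median was -0.19, or -0.03 under library size alone. None passed by edgeR without the block or by DESeq2 (0 calls, with 4 at an unadjusted p under 0.05 by edgeR), and 2, Pdgfa and Bmp1, were called lower with the block. Bmp1, a protease that cleaves procollagens and acts together with periostin in collagen crosslinking, was at 489, 436 and 628 CPM in controls 1 to 3 and at 230, 339 and 407 CPM in mutants 1 to 3. Its groups did not overlap, and the log2 fold change of -0.67 (SE 0.23) had an adjusted p of 0.563 by edgeR and 0.0249 with the block. The TGF-beta and BMP receptors of the list, named after their values were seen, had log2 fold changes of -0.43 for Tgfbr1, -0.22 for Tgfbr2, -0.08 for Acvrl1, -0.18 for Bmpr2 and 0.43 for Tgfbr3, each with overlapping groups, and Acvrl1 turned positive with library size alone (0.078). Lox, the lysyl oxidase that Bmp1 activates, was chosen likewise and had -0.50.

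The genes whose pattern over the 6 femurs was most like that of 3 of the markers were found by Pearson correlation of log2 CPM among 9622 genes with a mean of at least 10 CPM. These correlations, the highest of 9622 across only 6 libraries, are given as a description. For Prrx1 the nearest were Actr1b, Snx14 and Mapre2 (each r = 0.99). For Pdgfra they were Ptprz1, Zkscan17 and Rbak (each r above 0.99), which like Pdgfra were lowest in mutant mouse 1 and next lowest in mutant mouse 2. For Eng they were Ctnnbip1 (r = 0.99), Nfix and Nenf (each r = 0.975), all highest in control mouse 2 as Eng was.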

How the data were processed

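Total RNA from pulverized femurs was depleted of ribosomal RNA and sequenced with paired ends, and the authors used STAR for alignment to mm39 and Partek for the later steps, the latter also named in the submitters' processing notes. No source used here gives versions, gene models, counter settings or whether strand was used. The authors deposited unscaled estimated counts per gene, of which 70.7% were exactly whole, for 23733 genes. The smallest total of any gene was 10 counts. All its columns belonged to the 6 libraries (0 columns of other samples).

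Names and positions were read by Ensembl identifier from the GENCODE vM39 annotation of GRCm39 (23572 matched, 161 did not). Counts were rounded and genes kept by filterByExpr (minimum 10 counts, total 15), which left 18126. Libraries were scaled by TMM (factors 0.931 to 0.952 in control and 1.01 to 1.10 in mutant mice). The groups were tested with edgeR (quasi-likelihood F test, robust) and Benjamini-Hochberg adjustment. CPM are TMM-scaled, and 95% intervals are from that fit. Levels per kb are CPM divided by the length of the canonical transcript. Shared windows of 50 bases, a length chosen here because the read length is unknown here, were found with BLAST. No pair of libraries was alike within counting noise (chi-square per gene of at least 17.0). The scripts were tested on simulated data. R 4.3.3, edgeR 4.0.16, limma 3.58.1, DESeq2 1.42.0, Python 3.11.15, pandas 2.3.3, scipy 1.17.1 and matplotlib 3.10.9 were used.

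The study names DESeq2, which was run as an alternative, and so were limma-voom (without and with quality weights), no robust estimation and the replicate block. Scaling was repeated with median-ratio size factors, with library size alone, and after leaving out the 10 most abundant genes. The filter was dropped or replaced by 1 CPM in 3 libraries with a mean of 20 counts, and each mouse was left out in turn. Ratios of a marker to a summed list were also made with list genes of at least 1 CPM and with the list's geometric mean.

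Labels number the mice 1 to 3 in each group, but no source used here ties a number to a litter. Deviations of same-numbered libraries from their group means correlated at 0.154, 0.212 and 0.465, each over the limit of 0.1, so the numbers were taken to pair the mice. Mutant mouse 1 correlated more with control mouse 2 (0.202), so pair 1 is the least firm. Sample names given by the submitters run consecutively within pairs 2 and 3, but not within pair 1. The pairing is an assumption, checked only on the same libraries that the block then tests. Adjusted p-values with the block therefore hold only if the assumed pairs are right. Nothing states that the libraries were prepared independently beyond 1 mouse each.

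The markers and gene lists were chosen with earlier results of these data known. Named were the 10 markers, genes of the excluded gate antigens, Ifitm5, of each other list the called genes (at most 4), failing which the 2 of smallest unadjusted p, and the 3 genes most like Prrx1, Pdgfra and Eng. Genes that the rule takes from the lists of other tissues, and Ly6a2, are counted in their lists and not described singly. Apart from the genes above, 1 further gene that the rule names is not reported here. Ly6c1 and Ngfr are each in 2 lists.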

Additional observations from a re-analysis of the deposited data

How the results depend on the processing

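The count of markers called was 0 in each of the 16 alternative fits. Over all genes, edgeR called 0 without the replicate block, 602 with it, and 0 to 8 with each mouse left out (8 without mutant mouse 2), and DESeq2 called 120. The 602 calls depend on the assumed pairing of the mice. The block changed the call of none of the 10 markers (adjusted p from 0.0555 to 0.905, edgeR). The median log2 fold change of the markers ranged from -0.24 to -0.05 over the other fits, and from -0.30 to -0.11 with each mouse left out. Prrx1 and Eng turned positive with library size alone (0.054 and 0.085). With each mouse left out, Prrx1 ranged from -0.26 to 0.027, Eng from -0.17 to 0.026, Ly6a from -0.21 to 0.49 and Postn from -0.072 to 0.45, and the other 6 markers kept their sign in all 16 fits. The ratio of Eng to the endothelial sum ranged from -0.0057 to 0.11 on the log2 scale with each mouse left out, and was negative only without control mouse 1. The median of the further progenitor genes was -0.27 without control mouse 1. What caused these shifts was not tested. With the geometric mean of the list in place of its sum, the ratio of Pdgfra to the osteoblast genes was 0.105 and that of Thy1 to the T and NK cell genes -0.71. With 3 mice per group, the intervals given show the precision of each value, and which allele or Cre each control carried could not be taken into account.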
